A study of Mus musculus with 41 samples.

Results

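Endothelial genes, the genes that mark the cells lining blood vessels, were followed through a mouse model of diffuse midline glioma. The members were the 10 rows of the deposited expression table whose gene name is Cldn5, Pecam1, Cdh5, Kdr, Flt1, Tek, Tie1, Esam, Emcn or Slco1a4, out of 34591 rows, and each name matched 1 row. They are known markers, and the rule uses names and no values. The table holds 41 libraries of total RNA, given as FPKM, fragments scaled by transcript length and by the mapped fragments of the library.

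The 29 brainstem tumors carried Nestin-creERT2, LSL-PDGFRαV544ins (a mutant receptor switched on by Cre) and Trp53flox/flox, and differed in the H3f3a allele. In 20 of them it was H3f3aLSL-K27M-Tag/+, which makes tagged histone H3.3 with methionine in place of lysine at residue 27 (K27M tumors, 11 female and 9 male by label). In the other 9 it was H3f3aLSL-WT-Tag/+, which makes the same tagged histone without the mutation (WT-Tag tumors, 6 female and 3 male). The 12 neurosphere cultures came from the forebrain or hindbrain of e15.5 embryos with Nestin-cre and either H3f3a allele, 3 cultures for each region and allele, and their labels name neither the PDGFRα nor the Trp53 allele. The Nestin driver is used to place Cre in neural stem and progenitor cells, and whether the alleles were also recombined in vessel cells was not tested. The labels number the tumors but do not say that each came from a separate mouse, so the p-values measure the spread between these libraries.

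Brain endothelium is sealed by claudin-5 (Cldn5) and held together by VE-cadherin (Cdh5), PECAM-1 (Pecam1) and ESAM (Esam). Its growth is steered by the VEGF receptors VEGFR2 (Kdr), the main signalling receptor, and VEGFR1 (Flt1), which also acts as a decoy for VEGF, and by the angiopoietin receptor TIE2 (Tek) with its relative TIE1 (Tie1). Endomucin (Emcn) is a surface mucin of veins and capillaries, and Slco1a4 encodes an organic anion transporter of the blood-brain barrier, the set of seals and transporters that separates blood from brain.

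The promoters of the member with the highest level (Cldn5), of a receptor whose level followed that of Cldn5 (Tie1) and of the member that varied most and apart from these (Slco1a4) are shown because these genes carry the results below. Each window runs from 250 bases before to 50 bases after the gene's start in RefSeq on GRCm38.p6, reads 5′ to 3′ along the gene's strand, and has in capitals the core of sites for ETS factors, a family with members in endothelium such as ERG (AGGAAG or CGGAAG on either strand). The windows are chr16:18776597-18776896 (plus strand) for Cldn5, chr4:118489800-118490099 (minus strand) for Tie1 and chr6:141856171-141856470 (minus strand) for Slco1a4.
Cldn5: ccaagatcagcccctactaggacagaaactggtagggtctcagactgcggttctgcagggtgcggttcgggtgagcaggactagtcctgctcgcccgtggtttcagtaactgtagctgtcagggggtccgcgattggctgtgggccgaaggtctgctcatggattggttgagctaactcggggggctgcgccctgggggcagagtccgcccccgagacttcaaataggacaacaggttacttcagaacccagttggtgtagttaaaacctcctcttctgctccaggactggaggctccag
Tie1: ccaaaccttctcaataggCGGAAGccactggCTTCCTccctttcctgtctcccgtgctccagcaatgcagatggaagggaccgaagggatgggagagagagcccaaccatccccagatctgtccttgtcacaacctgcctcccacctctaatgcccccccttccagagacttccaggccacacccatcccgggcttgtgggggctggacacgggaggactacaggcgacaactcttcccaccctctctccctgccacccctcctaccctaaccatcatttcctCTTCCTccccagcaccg
Slco1a4: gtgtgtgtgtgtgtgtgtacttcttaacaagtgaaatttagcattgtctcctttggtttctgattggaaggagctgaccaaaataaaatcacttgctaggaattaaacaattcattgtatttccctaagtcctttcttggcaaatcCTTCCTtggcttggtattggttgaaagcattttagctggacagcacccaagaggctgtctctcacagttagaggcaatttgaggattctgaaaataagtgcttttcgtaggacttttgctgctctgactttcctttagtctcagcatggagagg
The core was found 3 times in the Tie1 window, once in that of Slco1a4 and not in that of Cldn5. RefSeq windows matched 7 of the 10 members, and 4 of these 7 held an ETS core, against 46.5% of all 32851 windows. AGATAA, read by GATA factors, was in 1 of the 7 (Tek), against 11.2% of all, and TAAACA, read by FOX factors, in 1 of the 7 (Slco1a4), against 13.4% of all, so the shares in these few windows lay near the background. The windows of Pecam1, Cdh5 and Esam were not used here.

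Of the markers looked at for the labelled tissues, only the PDGF receptor gene Pdgfra, whose receptor is also part of the tumor model, was higher in tumors. It reached 33.5 to 337 FPKM in tumors and 3.22 to 16.8 FPKM in cultures. The progenitor gene Nes was at 43.6 to 130 FPKM in cultures and at 5.83 to 83.6 FPKM in tumors. Olig2 and Sox2 had medians of 55.0 and 46.2 FPKM in tumors, against 123 and 90.6 FPKM in cultures. Relative sequencing depth, read from the FPKM worth of a single fragment and set to 1 for a typical library, ran over 0.431 to 1.79 in K27M tumors, 0.837 to 1.74 in WT-Tag tumors and 0.268 to 1.17 in cultures, and entries above 0 numbered 19720 to 27280. No member's level was related to depth, or to the share of the 5 highest entries, past an adjusted p of 0.05 across the 29 tumors (20 relations, permutation tests), and the nearest were Kdr and Cdh5 with that share (rho −0.51 and −0.46) and Tek with depth (rho −0.45), each with an adjusted p of 0.0994. WT-Tag tumors 8 and 9 had sex-linked transcripts that go against their labels: Xist was at 0.031 FPKM in tumor 8, labelled female, and at 54.5 FPKM in tumor 9, labelled male. Comparisons between tumors were recomputed without both.

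The members were detected in every tumor, in a steep order of levels. By median FPKM over the 29 tumors the order was Cldn5 (15.66), Slco1a4 (7.162), Esam (3.879), Pecam1 (3.597), Kdr (3.571), Flt1 (3.547), Cdh5 (2.024), Tek (1.461), Tie1 (1.274) and Emcn (0.618). FPKM is a level per length, so the genes may be ranked. Cldn5 was the highest of the 10 in 28 of 29 tumors and Emcn the lowest in 24. The neighbours Esam and Pecam1, Pecam1 and Kdr, and Kdr and Flt1 stood in that order in only 17, 15 and 15 of the 29 tumors, so these 4 genes had no fixed order. In the cultures the order was another: Kdr had the highest median, 0.2615 FPKM, Esam 0.214 FPKM and Cldn5 0.031 FPKM.

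**Figure D1:**
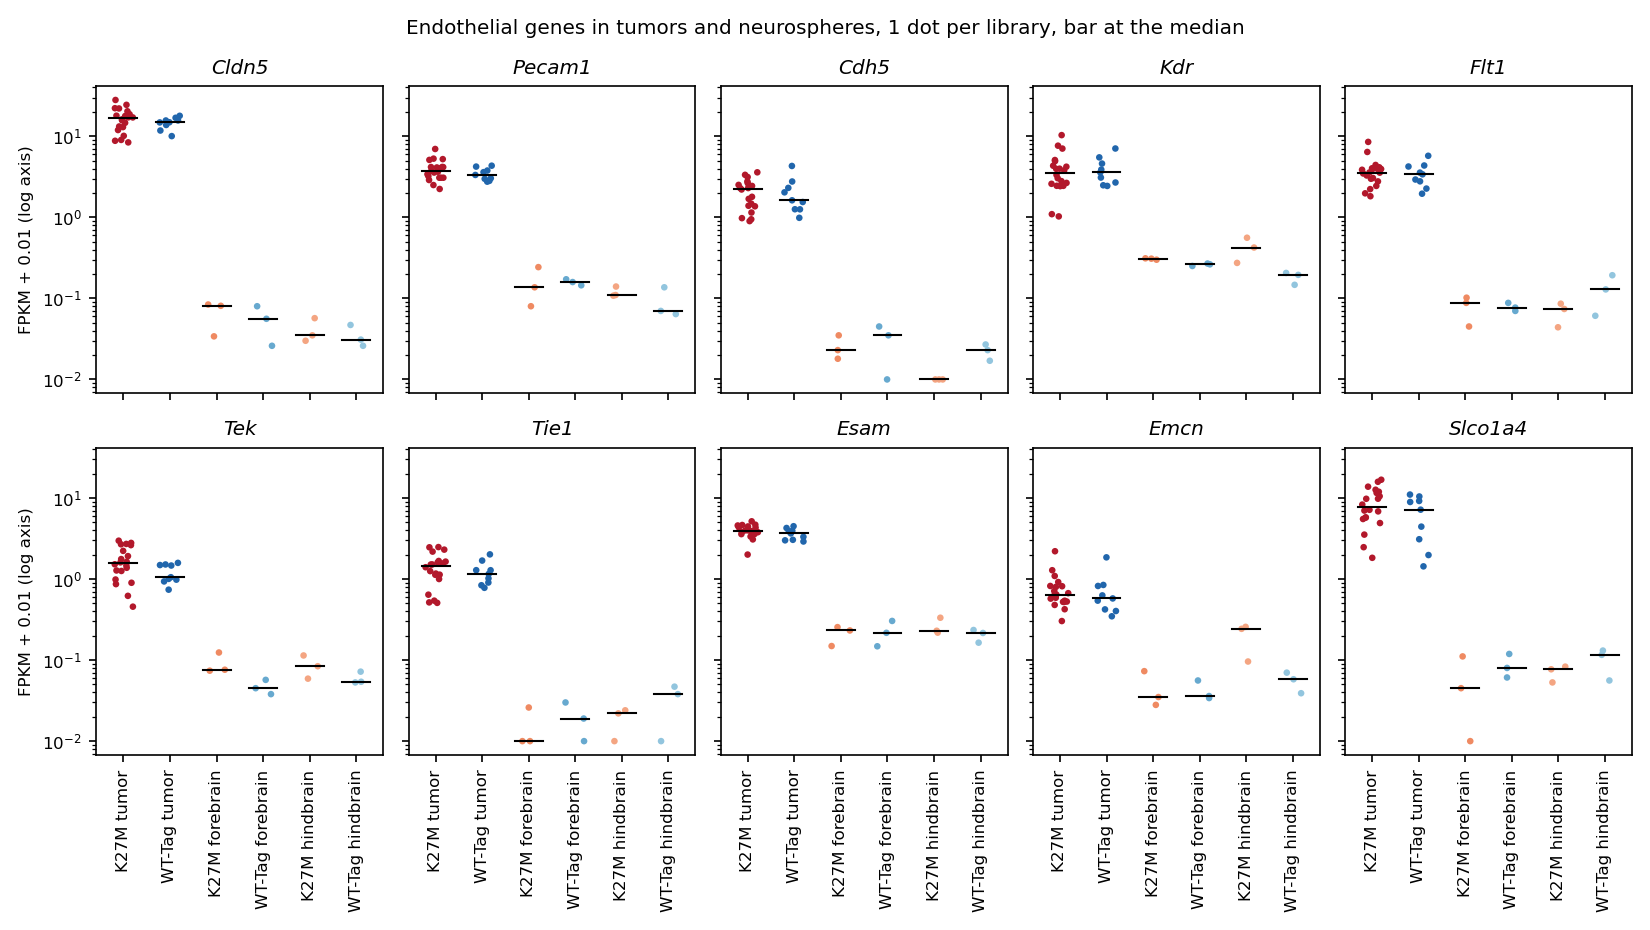
Level of each of the 10 endothelial genes in every library (vertical log axis, FPKM + 0.01, 1 dot per library, bar at the group median), with K27M tumors (n = 20) and WT-Tag tumors (n = 9) at the left and the 4 groups of neurospheres (n = 3 each) at the right. All 29 tumors lie above all 12 cultures for every gene, by the narrowest margin for Emcn (0.293 against 0.247 FPKM). The 2 tumor groups overlap throughout, as they do for all 15360 entries tested in tumors.

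The K27M allele did not separate the tumors for any of the 10 genes. Of all 15360 entries tested, 0 were without overlap in either direction, so this is not particular to the members. Of the 9 members that passed the filter (at least 1 FPKM in at least 9 tumors), 0 were called by limma on log2(FPKM + 1) at an adjusted p of 0.05, and 0 had an unadjusted p under 0.05. Over all 15360 entries tested, 13 or 0.0846% were called and 1104 or 7.19% had an unadjusted p under 0.05. The tenth member, Emcn, reached 1 FPKM in 4 tumors and failed the filter.

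Among the junction genes, Cldn5 had a lowest, median and highest level of 8.395, 16.62 and 28.032 FPKM in K27M tumors, against 10.035, 14.88 and 17.874 FPKM in WT-Tag tumors. The K27M range holds the whole WT-Tag range, and the log2 change was 0.10 ± 0.16 (SE, adjusted p = 0.910). VE-cadherin, Cdh5, had 0.888, 2.241 and 3.582 FPKM in K27M tumors, against 0.976, 1.612 and 4.292 FPKM in WT-Tag tumors, with a log2 change of 0.04 ± 0.16 (adjusted p = 0.967). Here the highest tumor of all was a WT-Tag tumor, number 28. Pecam1, an adhesion molecule at cell contacts, had 2.228, 3.689 and 6.959 FPKM in K27M tumors, against 2.744, 3.323 and 4.325 FPKM in WT-Tag tumors, and a log2 change of 0.12 ± 0.12 (adjusted p = 0.841). Esam, another contact protein, was the steadiest member, with 1.993, 3.927 and 5.142 FPKM in K27M tumors, against 2.894, 3.645 and 4.471 FPKM in WT-Tag tumors. Its log2 change was 0.09 ± 0.09 (adjusted p = 0.841).

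Among the receptors, Kdr had 1.017, 3.554 and 10.322 FPKM in K27M tumors, against 2.429, 3.571 and 7.054 FPKM in WT-Tag tumors. The medians nearly coincide, and its log2 change of −0.06 ± 0.22 (adjusted p = 0.966) was the only negative change among the 9. Flt1 had 1.811, 3.558 and 8.513 FPKM in K27M tumors, against 1.946, 3.383 and 5.734 FPKM in WT-Tag tumors, and its log2 change was 0.06 ± 0.16 (adjusted p = 0.942). Tek had 0.446, 1.552 and 2.961 FPKM in K27M tumors, against 0.729, 1.043 and 1.572 FPKM in WT-Tag tumors, so its highest K27M tumors stood above every WT-Tag tumor. With a log2 change of 0.25 ± 0.15 it had the smallest p of the 9 (p = 0.112, adjusted p = 0.763, limma), and genotype held 9.01% of its variance between tumors, the largest share among the 10. Tie1 had 0.498, 1.444 and 2.468 FPKM in K27M tumors, against 0.769, 1.146 and 2.004 FPKM in WT-Tag tumors, and changed by 0.09 ± 0.14 on the log2 scale (adjusted p = 0.904), within the spread.

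The transporter gene Slco1a4 had 1.817, 7.706 and 16.778 FPKM in K27M tumors, against 1.423, 7.162 and 11.007 FPKM in WT-Tag tumors. Its log2 change of 0.42 ± 0.30 (adjusted p = 0.781) lay within the spread of the tumors, and was 0.17 ± 0.31 without tumors 8 and 9, 0.25 without WT-Tag tumor 28. Emcn had 0.293, 0.634 and 2.192 FPKM in K27M tumors, against 0.337, 0.566 and 1.841 FPKM in WT-Tag tumors, and with no filter its log2 change was 0.04 ± 0.12 (adjusted p = 0.943). The median change of the 9 tested members was 0.09, with 8 of 9 above 0, against a median of −0.014 and 46.6% above 0 over all entries. With the mean level of 25 other endothelial genes as a covariate, 7 of the 9 changes were below 0, those of Cldn5 (−0.20 ± 0.08) and Cdh5 (−0.21 ± 0.12) included, and none was called. Without tumors 8 and 9 all 9 changes were above 0 and none was called: 0.19 for Flt1, 0.18 for Tek, 0.17 for Tie1, 0.16 for Cldn5, 0.15 for Pecam1, 0.11 for Cdh5, 0.08 for Esam and 0.06 for Kdr. In bulk tissue, fewer endothelial cells and less RNA per endothelial cell cannot be told apart.

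**Figure D2:**
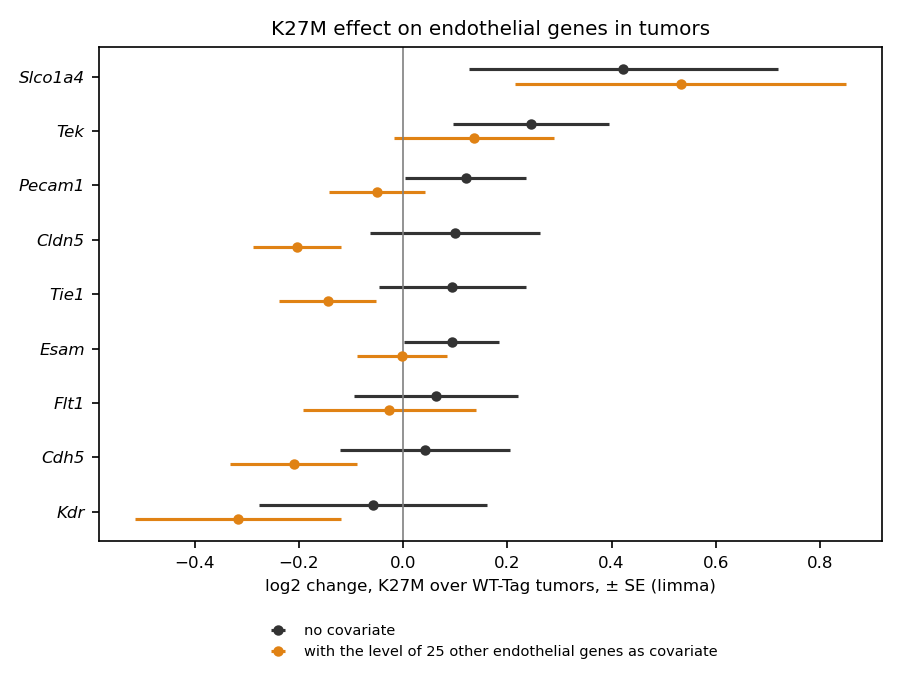
Log2 change of the 9 tested endothelial genes, K27M over WT-Tag tumors (horizontal axis, limma on log2(FPKM + 1), dots with SE bars, n = 20 and 9), without a covariate and with the mean log2 level of 25 other endothelial genes as covariate. Slco1a4 lies farthest to the right in both fits (0.42 and 0.53), while Cldn5, Pecam1, Tie1, Esam, Flt1 and Cdh5 move below 0 with the covariate.

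The other genes of the vessel wall and its signals gave no call between K27M and WT-Tag tumors either. Of 25 further endothelial genes 19 were tested and 0 called, with a median log2 change of 0.12. The nearest were Erg, an ETS factor of endothelium (2.47 FPKM in K27M tumors and 1.14 FPKM in WT-Tag tumors on average, log2 change 0.59 ± 0.19, adjusted p = 0.443), and Ly6c1, a surface protein of brain endothelium (123 and 60.8 FPKM in K27M and WT-Tag tumors, 1.33 ± 0.46, adjusted p = 0.487). Of 20 blood-brain barrier genes 16 were tested and 0 called (median 0.07), and the smallest p was that of the tight junction gene Ocln (0.41 ± 0.15, adjusted p = 0.509). Genes of leaky vessels and sprouting tips gave 0 calls of 12 tested (median 0.08), VEGF, angiopoietin, Notch and Wnt ligands 0 of 14 (median −0.03), partner receptors 0 of 8 (median −0.04), and pericyte and smooth muscle genes 0 of 12 (median −0.06). The ligand gene Vegfa ran over 9.26 to 60.1 FPKM in K27M tumors and 9.05 to 22.7 FPKM in WT-Tag tumors.

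Lists of cells outside the vessels gave no call either. All 10 neuron genes had a log2 change above 0 (median 0.61), as did all 8 genes of mature oligodendrocytes (median 0.85) and 7 of 8 astrocyte genes (median 0.49), while 13 of 15 tested microglia and macrophage genes were below 0 (median −0.14). The summed level of the 10 neuron genes ran over 81.6 to 932 FPKM in K27M tumors and 64.7 to 551 FPKM in WT-Tag tumors. None of these lists had a gene at 0 in all tumors, and their part in the members' differences between genotypes was not tested.

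The members were higher in tumors than in cultures, and for each this contrast was larger than its change between K27M and WT-Tag tumors. In hindbrain cultures Emcn averaged 0.189 FPKM with K27M and 0.0457 FPKM with WT-Tag, a difference that was not called (below). All 10 were called higher in K27M tumors than in K27M hindbrain neurospheres, and all 10 in WT-Tag tumors than in WT-Tag hindbrain neurospheres, against 18.4% and 15% of the 33617 entries tested called higher. All 10 were also without overlap in both contrasts, against 12.1% and 11.9% of entries. These contrasts set brainstem tumor tissue against neural cultures, and tissue, age, tumor alleles, Cre line and protocol cannot be told apart.

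Cldn5 differed most, with an average of 16.3 FPKM in K27M tumors, against 0.025, 0.020 and 0.047 FPKM in the 3 K27M hindbrain cultures, a 532-fold ratio of means. In WT-Tag tumors it averaged 14.6 FPKM, against 0.021, 0.037 and 0.016 FPKM in the WT-Tag hindbrain cultures, a 592-fold ratio. The log2 changes, which the added 1 holds down for genes this low in cultures, were 4.0 ± 0.22 (adjusted p = 1.33e-16) and 3.91 for K27M and WT-Tag. Even the lowest tumor stood 113-fold above the highest of all 12 cultures. Cdh5 was listed at 0 in all 3 K27M hindbrain cultures and reached 0.007, 0.013 and 0.017 FPKM in the WT-Tag ones, against averages of 2.06 FPKM in K27M and 2.00 FPKM in WT-Tag tumors.

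Tie1 was at 0.014, 0.012 and 0 FPKM in the K27M hindbrain cultures and 0, 0.037 and 0.028 FPKM in the WT-Tag ones, and it was listed at 0 in 5 of all 12 cultures. Slco1a4 averaged 8.57 FPKM in K27M tumors, against 0.073, 0.067 and 0.043 FPKM in K27M hindbrain cultures (log2 change 3.02 ± 0.41, adjusted p = 3.36e-07). Pecam1 and Esam were 35.4-fold and 15.7-fold higher in K27M tumors than in K27M hindbrain cultures by the ratio of means. Of the receptors, Flt1 was 64.0-fold and Tek 22.1-fold higher. These genes were thus all under 1 FPKM in every culture.

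Kdr and Emcn came closest to the tumors. Kdr averaged 3.95 FPKM in K27M tumors, against 0.550, 0.414 and 0.264 FPKM in K27M hindbrain cultures, 9.65-fold, and its lowest tumor was only 1.85-fold above the highest culture. Emcn averaged 0.744 FPKM in K27M tumors, against 0.247, 0.233 and 0.086 FPKM in K27M hindbrain cultures, 3.94-fold (log2 change 0.53 ± 0.16, adjusted p = 0.0102). Without K27M hindbrain culture 3 the adjusted p of Emcn was 0.0765 and 9 of the 10 members were called. In WT-Tag tumors and cultures Emcn differed by 15.4-fold (adjusted p = 0.00345).

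Of the wider endothelial list, 22 of 25 genes were higher in K27M tumors than in K27M hindbrain cultures and 19 of 25 in WT-Tag tumors than in WT-Tag ones, with Ly6c1, Cd34 and Eltd1 among the largest changes of both. The blood-brain barrier list split, with 13 higher and 2 lower for K27M and 12 higher and 3 lower for WT-Tag. The transporter genes Slco1c1 (log2 change 3.06 ± 0.30, adjusted p = 2.54e-10) and Abcb1a (2.16 ± 0.28, adjusted p = 9.97e-08) rose in the K27M contrast, and Tspan12, a gene of Norrin signalling, fell by 1.44. Vegfa, the ligand of Kdr and Flt1, was lower in tumors: it averaged 16.3 FPKM in K27M tumors and 106 FPKM in K27M hindbrain cultures (log2 change −2.74 ± 0.34, adjusted p = 6.31e-08), and 16.2 FPKM in WT-Tag tumors and 59.4 FPKM in WT-Tag cultures (−1.78 ± 0.37, adjusted p = 0.000333). Of the microglia and macrophage genes, 15 of 16 were higher in both contrasts (summed level 261 to 946 FPKM over the tumors and 13.4 to 23.5 FPKM over the cultures). Neuron genes (10 of 10 for K27M and 9 of 10 for WT-Tag) and mature oligodendrocyte genes (8 of 8 in both) were called higher, with 0 lower. All 8 proliferation genes were called lower in both. For K27M the median log2 change was 3.54 for neuron and 6.0 for oligodendrocyte genes, against 1.83 for the 10 members. The lists given next were mixed. Of 17 pericyte and smooth muscle genes 9 were higher in both, with 3 lower for K27M and 2 for WT-Tag. Of 14 leaky vessel and sprouting tip genes 4 were higher and 6 lower for K27M, and 2 higher and 3 lower for WT-Tag. Of 8 astrocyte genes 5 were higher and 2 lower for K27M, and 3 higher and 3 lower for WT-Tag. Over all 33617 entries 14.7% were called lower for K27M and 15.3% for WT-Tag.

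In the neurospheres, where the members were near the floor, 0 of 10 were called between K27M and WT-Tag in the forebrain and 0 of 10 in the hindbrain. The shares called over all 32641 entries were 0.107% in forebrain and 3.2% in hindbrain cultures. By unadjusted p under 0.05, 1 member (Tek) passed in forebrain, against 8.34% of all entries, and 2 (Kdr and Emcn) in hindbrain, against 17.4%. With quality weights per library, 2 members were called in hindbrain cultures, where 3731 of all 32641 entries were called with these weights.

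Emcn and Kdr are those 2. In hindbrain cultures Emcn was at 0.247, 0.233 and 0.086 FPKM with K27M, against 0.060, 0.048 and 0.029 FPKM with WT-Tag (log2 change 0.18 ± 0.05, adjusted p = 0.0585). Kdr was at 0.550, 0.414 and 0.264 FPKM with K27M, against 0.137, 0.196 and 0.185 FPKM with WT-Tag (0.26 ± 0.07, adjusted p = 0.0616). Neither gene overlaps between the groups, as was so for 8.34% of all entries in this direction. With weights the adjusted p was 0.00749 for Emcn and 0.0158 for Kdr, and with each library scaled to its upper quartile 0.166 and 0.318. Without K27M culture 3 both were called (0.00339 and 0.0205), as were 476 of 32577 entries over all. Without WT-Tag culture 1 Emcn (0.0434) and Flt1, lower with K27M (−0.12, adjusted p = 0.0413), were called, as were 3972 of 32536 entries over all. Culture 3 of the K27M group, which is from experiment 3, was female and its WT-Tag partner male.

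In forebrain cultures Emcn was at 0.018, 0.025 and 0.063 FPKM with K27M, against 0.024, 0.026 and 0.046 FPKM with WT-Tag, and Kdr at 0.302, 0.299 and 0.290 FPKM, against 0.259, 0.253 and 0.241 FPKM. The difference between the K27M effects in hindbrain and forebrain, a contrast added after the data were seen, was 0.18 for Emcn (adjusted p = 0.835) and 0.21 for Kdr (adjusted p = 0.878), so no difference between regions was called for them. Tek in forebrain was at 0.064, 0.114 and 0.066 FPKM with K27M, against 0.028, 0.035 and 0.047 FPKM with WT-Tag, without overlap, as for 8.31% of entries (0.06 ± 0.02, p = 0.0322, adjusted p = 0.546, limma).

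Some endothelial and vessel-linked genes outside the 10 were called in the same hindbrain contrast. They are Mcam (13.3 FPKM with K27M and 4.78 FPKM with WT-Tag, log2 change 1.37, adjusted p = 0.0154), Podxl (0.64, adjusted p = 0.0355), Egfl7 (0.60, adjusted p = 0.0113) and the TGF-β coreceptor Eng (0.31, adjusted p = 0.0108), 4 of 25 of the wider list. The tip-cell gene Esm1 (0.93, adjusted p = 0.00207) and Adm (1.03, adjusted p = 0.0415) were higher and Vcam1 (−1.19, adjusted p = 0.00393) lower. The Cldn5, Cdh5 and Tie1 levels given above stayed at or under 0.047 FPKM in all 6 hindbrain cultures. Of all entries 1045 were called here, but 138 with upper-quartile scaling and 17 with the 6 hindbrain libraries alone.

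Between tumors the members differed widely in how much they varied. On the log2 scale the SD over 29 tumors was 0.787 for Slco1a4, more than in 91.5% of all tested entries, and 0.556 for Kdr (76.8%). It was 0.21 for Esam, more than in only 6.79% of entries, while the median entry had 0.384. Slco1a4 spanned 11.8-fold and Kdr 10.1-fold between the lowest and highest tumor, Esam 2.58-fold. Genotype held at most 9.01% of the variance of any member, so nearly all of it lay among tumors of the same allele.

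Tumors high in 1 member were often high in others. K27M tumor 15 had the highest Cldn5 (28.032 FPKM), Pecam1 (6.959 FPKM), Kdr (10.322 FPKM) and Emcn (2.192 FPKM) of all 29, but only 2.460 FPKM of Slco1a4. K27M tumor 13 was above the median for all 10 genes. K27M tumor 16 and WT-Tag tumor 29 were above it for none. K27M tumor 14 had the lowest Cldn5 and Esam (8.395 and 1.993 FPKM).

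**Figure D3:**
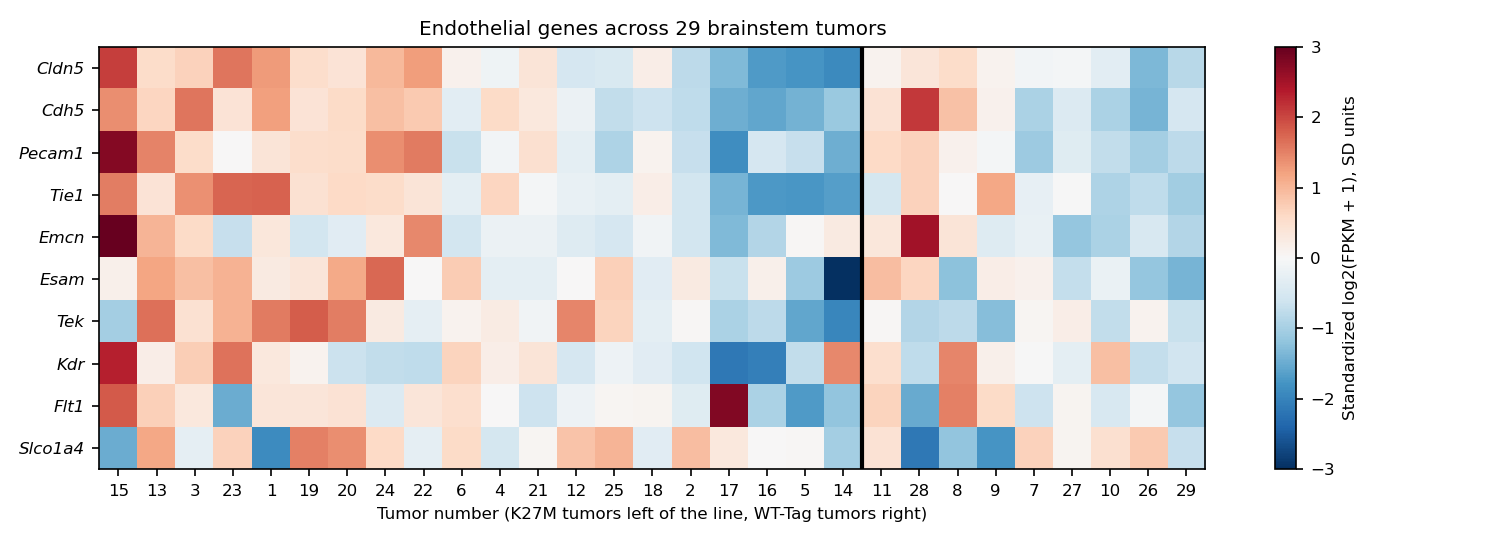
Standardized level of the 10 endothelial genes (rows) in the 29 tumors (columns, K27M left of the line and WT-Tag right, each ordered by the mean over the 10 genes); red is above and blue below the mean over tumors, in SD units of log2(FPKM + 1). Cldn5, Cdh5, Pecam1 and Tie1 change colour together, K27M tumor 15 is red for most genes, and the Slco1a4 row does not follow these 4.

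Over the 45 pairs of members, 38 had a positive Spearman's rho and 16 of these were called at an adjusted p of 0.05 (permutation tests with 100000 resamples, adjusted over the 45 pairs), with no negative pair called. By Pearson's r 20 positive pairs and 1 negative were called. With each library scaled to its upper quartile 11 pairs were called, all of them among the 16, and without tumors 8 and 9 18, among them all 16. Pairs share library and depth. The shares of positive and of called pairs over all tested entries are not given here, so these counts are not read as particular to endothelial genes.

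The tightest group was Cldn5, Pecam1, Cdh5 and Tie1, singled out after the values were seen. Its 6 pairs had rho of 0.71 to 0.87 (adjusted p of 9e-05 to 0.00045) and r of 0.67 to 0.89 (adjusted p of 7.5e-05 to 0.000562), and r without the 2 tumors farthest from the median was 0.60 to 0.87. Within genotypes r was 0.68 to 0.93 among K27M tumors and 0.54 to 0.91 among WT-Tag tumors. Emcn went with Cdh5 (rho 0.69) and Pecam1 (0.68), and Esam with Cldn5 (0.55) and Tek (0.58). The pair of Esam and Tek was not called with upper-quartile scaling, and had r of 0.69 among K27M and −0.07 among WT-Tag tumors.

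The 2 VEGF receptors did not follow each other across tumors: Kdr and Flt1 had rho 0.21 and r 0.08 (adjusted p = 0.388 and 0.741). K27M tumor 17 held the highest Flt1 of all, 8.513 FPKM, with the lowest Kdr, 1.017 FPKM. Within genotypes r was −0.09 among 20 K27M tumors and 0.71 among 9 WT-Tag tumors, and the difference between these was not tested. Kdr formed no pair called by rho, while by r its pairs with Cldn5 (0.51, adjusted p = 0.0145) and Tie1 (0.45, adjusted p = 0.0337) were called, with r of 0.60 and 0.29 without the 2 farthest tumors.

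**Figure D4:**
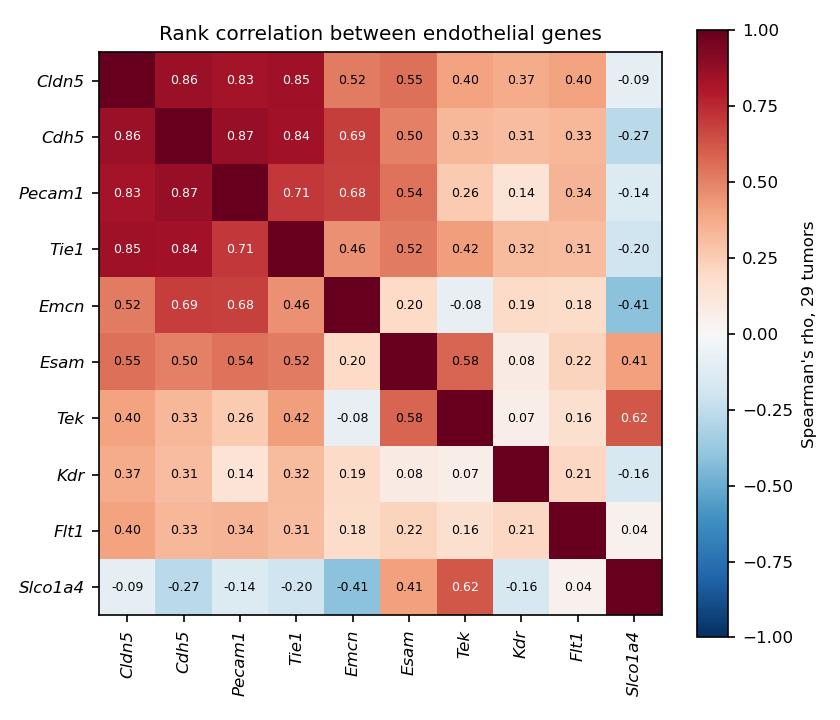
Spearman's rho of log2(FPKM + 1) between each 2 of the 10 endothelial genes over the 29 tumors, red for positive and blue for negative. The block of Cldn5, Cdh5, Pecam1 and Tie1 at the upper left lies between 0.71 and 0.87, and Slco1a4 is positive with Tek (0.62), Esam (0.41) and Flt1 (0.04) alone.

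Slco1a4 did not follow the tight group of 4. Its rho was −0.09 with Cldn5, −0.14 with Pecam1, −0.20 with Tie1 and −0.27 with Cdh5, none called. With Esam rho was 0.41 (adjusted p = 0.0705), and with Tek it was 0.62 (r 0.54, adjusted p = 0.00235 and 0.00855, r 0.46 without the 2 farthest tumors). With Emcn it was −0.41 (adjusted p = 0.0705), and r was −0.50 (adjusted p = 0.0145), −0.22 without the 2 farthest. The tumors lowest in Slco1a4 were WT-Tag 28 (1.423 FPKM), K27M 1 (1.817 FPKM), WT-Tag 9 (1.966 FPKM) and K27M 15 (2.460 FPKM), 2 of which (28 and 15) had the highest Emcn.

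The levels of Slco1a4 followed those of barrier and of brain parenchyma genes. The relations of members with the mean log2 level of 11 gene lists, 110 in all, were added after the data were seen. Slco1a4 had rho 0.72 with the 20 blood-brain barrier genes (r 0.68, adjusted p = 0.000412 and 0.0011), and 0.04 with the 25 other endothelial genes. The barrier list is not confined to vessels in these data. Its mean log2 level was 2.36 over tumors and 1.74 over cultures, with a summed median of 163 FPKM in both, against mean log2 levels of 2.06 and 0.13 for the 10 members. Which cells carry the list in tumors was not tested. With 10 neuron genes rho was 0.74 (r 0.75, adjusted p = 0.000412 and 0.000314), with 8 astrocyte genes 0.72 (r 0.82, adjusted p = 0.000367 and 0.00022) and with 8 proliferation genes −0.55 (r −0.59, adjusted p = 0.0188 and 0.00495). Without the 2 farthest tumors the 4 values of r were 0.61, 0.70, 0.75 and −0.53. In K27M tumors r was 0.79, 0.68, 0.78 and −0.61, and in WT-Tag tumors 0.42, 0.86, 0.85 and −0.64, in the same order. The relation with proliferation was past the threshold no more without tumors 8 and 9 (rho −0.49, adjusted p = 0.0507), nor was that with 8 oligodendrocyte genes (rho 0.53, r 0.53, adjusted p = 0.0232 and 0.015, against rho 0.45 and adjusted p = 0.0725).

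The neuron genes left a gap between 8 tumors below a mean log2 level of 3 (1.84 to 2.65) and 21 above it (3.36 to 5.85). This cut was set in that gap and was not planned. Slco1a4 ran over 1.423 to 10.5 FPKM (median 2.77) in the 8 and 3.521 to 16.778 FPKM (median 9.18) in the 21. Within the 21, Slco1a4 and the neuron level had r 0.67 and rho 0.65 (permutation p = 0.00091 and 0.00208, adjusted p over 8 such relations 0.00728 and 0.0166, r 0.50 without the 2 farthest). Within the 8 it had r −0.18 and rho −0.10 (exact permutation tests, adjusted p = 0.800 and 0.840), so the relation was not seen there. With the astrocyte genes Slco1a4 had r 0.58 and rho 0.44 within the 21 (permutation tests, adjusted p = 0.0214 and 0.126, r 0.34 without the 2 farthest), so its rho was not past the threshold. Within the 8 it had r 0.68 and rho 0.67 with them (permutation tests, adjusted p = 0.131 and 0.166). Cdh5 had r 0.86 and rho 0.83 with the neuron genes within the 8 (permutation tests, adjusted p = 0.0256 and 0.0616), and 0.15 and 0.17 within the 21. With the astrocyte genes r of Cdh5 was −0.48 over all 29 tumors, 0.16 within the 8 and 0.02 within the 21. How far the share of brain tissue in a sample sets Slco1a4 was not tested.

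**Figure D5:**
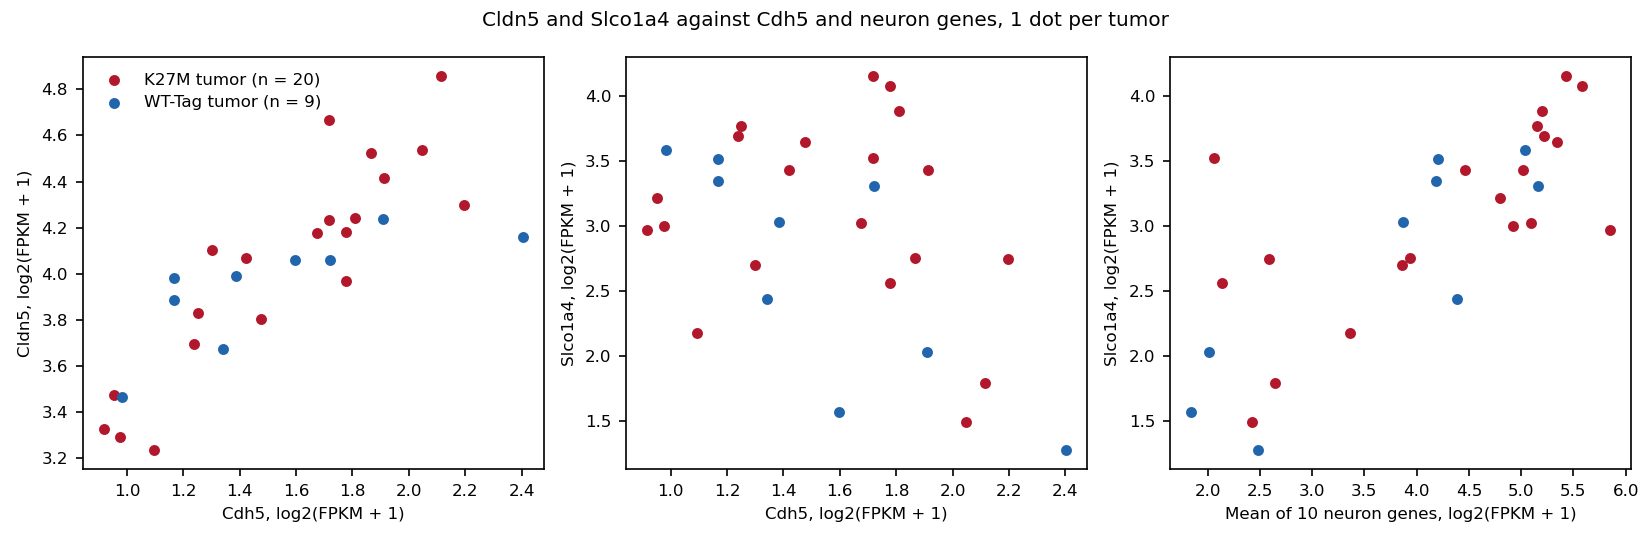
Log2(FPKM + 1) of Cldn5 against Cdh5 (left), of Slco1a4 against Cdh5 (middle) and of Slco1a4 against the mean of 10 neuron genes (right), 1 dot per tumor, K27M tumors (n = 20) in red and WT-Tag tumors (n = 9) in blue. Cldn5 climbs with Cdh5 (rho 0.86), Slco1a4 does not (rho −0.27), and Slco1a4 climbs with the neuron genes (rho 0.74), with 8 tumors at the low end.

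Tek and Esam also went with the blood-brain barrier list, with rho of 0.56 and 0.53 (adjusted p = 0.0137 and 0.0231) and r of 0.52 and 0.55 (adjusted p = 0.0168 and 0.00984), 0.36 and 0.49 without the 2 farthest tumors. For Esam r was 0.72 among K27M tumors and −0.04 among WT-Tag tumors, a difference that was not tested. Cdh5, Tie1, Cldn5 and Pecam1 had rho of 0.76, 0.71, 0.65 and 0.63 with 17 pericyte and smooth muscle genes (adjusted p = 0.000367, 0.000489, 0.0018 and 0.00357), with r of 0.76, 0.67, 0.62 and 0.57, and 0.73, 0.68, 0.65 and 0.56 without the 2 farthest tumors. Tie1 ran against astrocyte genes (rho −0.53, r −0.49, adjusted p = 0.0232 and 0.0257, r −0.34 without the 2 farthest) and with proliferation genes (rho 0.52, r 0.53, adjusted p = 0.0232 and 0.015, r 0.48 without the 2 farthest). Tie1 also ran against neuron genes (r −0.58, rho −0.48, adjusted p = 0.00681 and 0.0371) and with 8 progenitor and tumor identity genes (r 0.63, rho 0.55, adjusted p = 0.00297 and 0.0178). Cdh5 ran against astrocyte genes (r −0.48, rho −0.48, adjusted p = 0.0278 and 0.0371, permutation tests for all of these). With proliferation genes Cdh5 had r 0.51 and rho 0.46 (permutation tests, adjusted p = 0.0187 and 0.0508). The signs of these relations are the opposite of those for Slco1a4.

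The entries whose levels were most like the mean of the 10 standardized members, among 15351 other entries and over 29 tumors, were Ptprb (rho 0.86), which encodes an endothelial phosphatase acting on TIE2, Eng (0.83), the endothelial nitric oxide synthase gene Nos3 (0.81), Arap3 (0.77), Vwf (0.76), Egfl7 (0.72), Eltd1 (0.71), Cd248 (0.70), Pdgfb (0.70) and Srgap2 (0.69). Single members had different nearest entries. Eng was the nearest to Cldn5 (0.78), Pecam1 (0.80) and Cdh5 (0.88), Aplnr to Tie1 (0.83), Ptprb to Esam (0.73) and Ocln to Tek (0.76). For Slco1a4 it was Slco1c1 (0.88), a thyroid hormone transporter gene of the barrier, followed closely by Zkscan16 (0.87) and Abcb1a, an efflux pump gene. The nearest entries of Kdr (Ripk1, 0.79) and Flt1 (Qsox2, 0.78) are in none of the endothelial lists.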

How the data were processed

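Total RNA was sequenced after ribosomal depletion (TruSeq Stranded Total RNA, per the labels' protocols), with ERCC spikes in the neurospheres. The authors deposited FPKM per gene, with 3 decimals and no counts, so counting error is unknown. CASAVA, TopHat2, STAR and mm9 stand in the submitters' processing notes. Which tool counted fragments, on which annotation, was not given in the sources used here. Columns of other samples numbered 0. Levels were compared as log2(FPKM + 1), so fold changes of low genes are understated.

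limma 3.58.1 (R 4.3.3, trend, Benjamini-Hochberg over all entries, threshold 0.05) was fitted on the 29 tumors (at least 1 FPKM in at least 9), on all 41 libraries for tumors against cultures, and on the 12 cultures (no filter on level in either). Correlations used numpy 2.4.6 with permutation tests. All 10 members are named. Of other lists the called genes, up to 4 with the largest change, or else the 2 with the smallest p are named, and by likeness the 10 nearest entries and each member's nearest (that of Emcn is not reported here). Members and lists were chosen with earlier results of these data known.

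On simulated data with a common SD, 79% of 2-fold changes were recovered in tumors, with 9.4% false calls. The changed entries were drawn from those with a mean above 2 FPKM and were shifted on the log2(FPKM + 1) scale. Tek, Tie1 and Emcn averaged 1.52, 1.34 and 0.732 FPKM over the tumors, so the 79% does not describe them. With each group's own SD false calls were 10.8% in tumors but 35.1% and 62.6% in the K27M and WT-Tag contrasts of tumors with cultures, and 30.9% and 34.2% in forebrain and hindbrain cultures, so adjusted p-values there are too small where spreads differ.

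K27M and WT-Tag cultures share an experiment id in the labels. Deviations of partners correlated at 0.458, −0.253 and 0.349 in forebrain and 0.42, 0.157 and 0.433 in hindbrain (experiments 1 to 3). Alternatives were other pseudocounts, filters and scaling, library weights, sex and endothelial level as covariates, the experiment block, and left-out libraries.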

Additional observations from a re-analysis of the deposited data

Results flagged for a closer look

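Emcn in WT-Tag tumor 28 was at 1.841 FPKM, far from the other 8 WT-Tag tumors, of which the next was at 0.835 FPKM. The gap is 0.669 of the group's range, over the critical value of 0.493 for 9 samples. The highest and the lowest of the 9 WT-Tag tumors were looked at for each of the 10 genes, and chance flags about 1 in 20 groups. The same tumor had the highest Cdh5 (4.292 FPKM) and the lowest Slco1a4 (1.423 FPKM) of all 29, and the highest mean log2 level of 8 fibroblast genes (3.78) and of 17 pericyte and smooth muscle genes (2.27). Their part in the Emcn value was not tested.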

How the results depend on the processing

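Between tumors the members called stayed at 0 under each alternative run. With the endothelial level as covariate the sign turned for Cldn5 (−0.204), Pecam1 (−0.050), Cdh5 (−0.210), Flt1 (−0.027), Tie1 (−0.145) and Esam (−0.003), and without tumors 8 and 9 for Kdr (0.058). With single tumors left out Cdh5 ran over −0.025 to 0.153, Kdr −0.128 to 0.038 and Flt1 −0.006 to 0.143, all uncalled. Entries called over all were 13, and 48 with library weights, 26 with no filter, 21 with that covariate and 8 without tumors 8 and 9, or 8 to 18 with 1 tumor left out. Against hindbrain cultures 9 to 10 members were called in K27M tumors with 1 library left out, all 10 in WT-Tag tumors, and 16814 entries instead of 11153 with weights in the K27M contrast.

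In hindbrain cultures 2 members were called with weights, 1 without experiment 3 (Emcn, adjusted p = 0.0401, limma) and 0 to 2 with 1 library left out. Entries called there were 1045, and 138 with upper-quartile scaling, 3731 with weights, 1787 with the filter at 1 FPKM in 3 libraries, 17 with the region alone and 58 without experiment 3, or 239 to 3972 with 1 library left out. In forebrain they were 35, and 6, 166, 16 and 0 with scaling, weights, region alone and no experiment 3, or 11 to 61 with 1 library left out. With the experiment as replicate block the counts were 1249 and 30 and no member was called. That filter left no member in the culture fits. Scaling moved the median of all entries by −0.047 in tumors and −0.049 in hindbrain cultures. The cause was not tested. FPKM without counts gives no interval for the levels under 0.1 FPKM in cultures.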
